A study of Mus musculus with 10 samples.

Results

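Replication-dependent histone genes encode the core histones H2A, H2B, H3 and H4 and the linker histones H1 that package newly copied DNA. They were taken here as the gene symbols that start with Hist1h, Hist2h, Hist3h or Hist4h and that had at least 10 counts summed over the 10 libraries. The annotation holds 70 such names among the 53465 genes of the count table, and 56 of them met the minimum and are the members. Of the other names, 9 had no count in any library and 5 had 1 to 9 counts. The lowest member, Hist1h1t, had 13 counts, and the highest name left out, Hist1h2ah, had 9. Of the 56 members, 44 passed the filter on low counts and were tested, and 12 were not tested. The members include 2 annotated pseudogenes, Hist1h2aj and Hist3h2bb-ps, and Hist3h2bb-ps was tested.

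RNA sequencing measured mouse erythroblasts, nucleated cells that divide a few times on their way to becoming red blood cells, taken from spleens 11 days after the chemotherapeutic drug 5-FU. All mice were C57BL/6 by their labels, and all had received 5-FU, the wild type included. The 4 genotypes were wild type (WT, 2 libraries), miR-144/451-null, which lacks that microRNA cluster (2 libraries), Nrf2-null, which lacks the transcription factor Nrf2 (3 libraries), and double-null, which lacks both (3 libraries). The labels do not tie a library to a mouse, so the spread behind each p-value is that between libraries and may in part be technical.

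Most of these genes are transcribed in S phase, when the cell copies its DNA and needs histones in step with it. Their mRNAs usually carry no poly(A) tail and end just after a short hairpin, which the stem-loop binding protein Slbp recognises and near which the U7 small nuclear ribonucleoprotein directs the cut. Some members are also made as polyadenylated mRNAs from a site further downstream, a form known from differentiating cells, and erythroblasts shut down division and condense their chromatin as they mature. The members sit in gene clusters, Hist1 on chromosome 13 (48 members), Hist2 on chromosome 3 (4), Hist3 on chromosome 11 (3) and Hist4 on chromosome 6 (1).

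The hairpin is the element that sets these transcripts apart, and it was searched in the annotated transcripts (GENCODE M21, sense strand) as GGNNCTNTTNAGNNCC. It was found for 38 of the 56 members, and in 0.403% of 21834 other coding genes (88). The sequences below are those of members described in the results, 5′ to 3′, with the hairpin in capitals between 5 flanking bases on each side.
Hist1h1c: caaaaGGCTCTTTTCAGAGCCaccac
Hist1h1d: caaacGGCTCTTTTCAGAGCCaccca
Hist1h2bj: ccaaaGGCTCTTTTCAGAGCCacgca
Hist3h2ba: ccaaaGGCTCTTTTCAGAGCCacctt
Hist1h3c: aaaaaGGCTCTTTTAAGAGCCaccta
Hist1h4i: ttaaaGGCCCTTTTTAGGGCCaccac
Hist1h4n: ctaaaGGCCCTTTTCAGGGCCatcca
Hist4h4: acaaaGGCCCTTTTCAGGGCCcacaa
The stem differed by class: all 28 matched members of classes H1, H2A, H2B and H3 began GGCTC, whereas 9 of the 10 matched H4 members began GGCCC and 1 began GGTCC. By class, the hairpin was found for 4 of 6 H1, 7 of 11 H2A, 10 of 17 H2B, 7 of 10 H3 and 10 of 12 H4 members. A hairpin not found is not shown to be absent, since the search could not see past the annotated end. Some members without a match had short annotated transcripts, such as 312 bases in Hist1h4k and 381 in Hist1h2bn. The annotated transcript ran on for 840 bases after it in Hist1h1c, 4884 in Hist1h1d, 330 in Hist1h4i and 2445 in Hist4h4, but for 23 in Hist1h2bj and 31 in Hist1h4n.

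Promoters (RefSeq, GRCm38.p6, 250 bases before to 50 after each start) were found for 62 of the 70 names and searched on both strands. The H2A names Hist1h2ao and Hist1h2ap were matched to the same promoter, so the counts below hold it for each of them. These elements are shown because they separate the classes, the AC box AAACACA known from H1 promoters and the octamer ATTTGCAT known from H2B promoters, each in capitals.
Hist1h1b: tggggactaacAAACACAatttgggattg
Hist1h1c: tgaagtgtaacAAACACAagttgggcgca
Hist1h1d: tgaggggcaacAAACACAgccacaaggca
Hist1h1e: tgaggtgtaacAAACACAactccgcatct
Hist1h2bm: ctctcgtctctATTTGCATaacagcgtgta
Hist1h2bg: ttgagtcccttATTTGCATagaacctctat
The AC box was found in 5 of 6 H1 promoters, 2 of 18 H2A, 2 of 16 H2B, 0 of 10 H3 and 0 of 12 H4, against 7.18% of all 32851 promoters of that length. In these 4 H1 promoters it lay between 122 and 112 bases before the start. The octamer was found in 7 of 16 H2B and 7 of 18 H2A promoters and in no H1, H3 or H4 promoter, against 1.74% of all. CCAAT was found in 53 of 62 promoters (37.4% of all), and of the 12 H4 promoters 3 held it. TATAAA was found in 35 of 62 (13.6% of all). A match describes these letters only, and H2A and H2B genes often stand head to head and share 1 promoter window.

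Library totals ranged from 13087827 to 15131036 counts, and the members took between 0.0435% and 0.0855% of them. The erythroid marker list (10 genes, all tested) summed to 91172 to 160082 CPM (each count over the library total after edgeR's TMM scaling). Mir144 had no count in the 5 libraries labelled as lacking the cluster and 0.606 to 1.38 CPM in the other 5, while Mir451a had none in any. Nfe2l2, the gene of Nrf2, lay between 46.1 and 86.1 CPM in all 10, and a count over the whole gene does not check which part was deleted. By Xist and Y-linked counts both WT libraries and double-null 3 were female and the other 7 male, so sex and genotype cannot be told apart between WT and either single null, except through double-null 3. B cell marker genes (8, none at 0) summed to 1092 and 1343 CPM in WT, 646 and 802 in miR-144/451-null, 838 to 984 in Nrf2-null and 326 to 723 in double-null libraries.

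A total of 89091 counts fell on the members, with a median of 231.5 per member over the 10 libraries. The 6 most counted members held 85.0% of them, and 7 had over 1000. Class H1 held 55.4% of the member counts, H2B 26.8%, H4 13.4%, H3 3.12% and H2A 1.24%. Of the 56 members, 32 shared at least 50% of their 31-base words with another gene (range over members 0 to 98.3%), so the counts of close copies could have been split or lost by the authors' counting. Of the 9 names with no count, 7 shared over 50% and 5 shared all of them (Hist2h2aa1, Hist2h2aa2, Hist2h2bb, Hist2h3b and Hist2h3c1). Also, 11 members overlap a gene on the opposite strand, and the counting strand is not given in the sources used here. Some overlap a gene on the same strand. Hist3h2a overlaps Trim17 and shares 32.1% of its words, most with Trim17, and Hist1h1e and Hist1h2be overlap each other. The labels name no poly(A) selection or ribosomal RNA removal. Of 14 RNAs that carry no poly(A) tail, such as small nuclear RNAs, 9 had no count and 13 stayed under 1 CPM in every library, the highest single value being 1.61 CPM for Rn7sk.

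Among the H1 linker histones, which bind the DNA between nucleosomes, Hist1h1c (ENSMUSG00000036181) stood first. Its mean level per length over the 10 libraries was 212 FPKM (counts scaled to gene length and library total, as deposited; 105 to 354), against 7.14 for Hist1h1b and 2.83 for Hist1h1a. Hist1h1c was at 154 and 243 CPM in WT and 398 and 346 in miR-144/451-null. It was at 236, 171 and 199 CPM in Nrf2-null and 599, 560 and 410 in double-null libraries. All 5 libraries without the cluster lay above all 5 with it. In bulk libraries such as these, a change in the share of cells that express a gene and a change in RNA per cell cannot be told apart. Group means were 199 ± 63.2 (SD, n = 2), 372 ± 37.4 (n = 2), 202 ± 33.0 (n = 3) and 523 ± 100 (n = 3) CPM in that order. By edgeR's quasi-likelihood test with Benjamini-Hochberg adjustment over all 14110 genes, Hist1h1c rose in double-null against Nrf2-null by a log2 fold change of 1.37 ± 0.21 (SE, adjusted p = 9.03e-04) and in double-null against WT by 1.40 ± 0.24 (adjusted p = 0.00351). In miR-144/451-null against WT its log2 difference was 0.91 ± 0.25 (adjusted p = 0.068), and in Nrf2-null against WT 0.02 ± 0.23 (adjusted p = 0.98). Within male libraries the double-null against Nrf2-null difference was 1.54 (adjusted p = 0.00153), and with a term for sex the difference from WT was 1.05 (adjusted p = 0.0616).

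The other H1 members did not follow Hist1h1c. Hist1h1b, another somatic linker histone, was at 2.91 and 4.23 CPM in WT, 2.19 and 2.82 in miR-144/451-null, 9.15, 10.1 and 11.2 in Nrf2-null and 5.28, 2.89 and 3.67 in double-null libraries. The 3 Nrf2-null libraries lay above all others. It fell in double-null against Nrf2-null by 1.36 ± 0.28 on the log2 scale (edgeR, adjusted p = 0.00537), and its Nrf2-null against WT difference was 1.51 ± 0.33 (adjusted p = 0.17). Hist1h1a was at 1.21 and 0.733 CPM in WT, 1.53 and 0.645 in miR-144/451-null, 3.57, 3.83 and 4.21 in Nrf2-null and 1.93, 1.22 and 2.59 in double-null libraries. Hist1h1d (4.01 to 14.4 CPM) and Hist1h1e (1.64 to 9.33 CPM) were likewise highest in the 3 Nrf2-null libraries, without overlap with any other. Hist1h1c made up 93.0% and 93.8% of the H1 counts in WT, 97.1% and 97.3% in miR-144/451-null, 82.7% to 88.1% in Nrf2-null and 95.7% to 97.1% in double-null libraries. Of all member counts it made up 39.4% and 41%, 66.4% and 65.2%, 30.1% to 35.1%, and 62.6% to 71.8% in the same order. The summed level of the 55 other members was lower in the libraries without the cluster, at 202 and 184 CPM in miR-144/451-null against 236 and 350 in WT, and at 220 to 328 in double-null against 367 to 529 in Nrf2-null. With Hist1h1c included the sums were 390 and 593 in WT, 600 and 530 in miR-144/451-null, 566 to 766 in Nrf2-null and 654 to 927 CPM in double-null libraries.

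**Figure D1:**
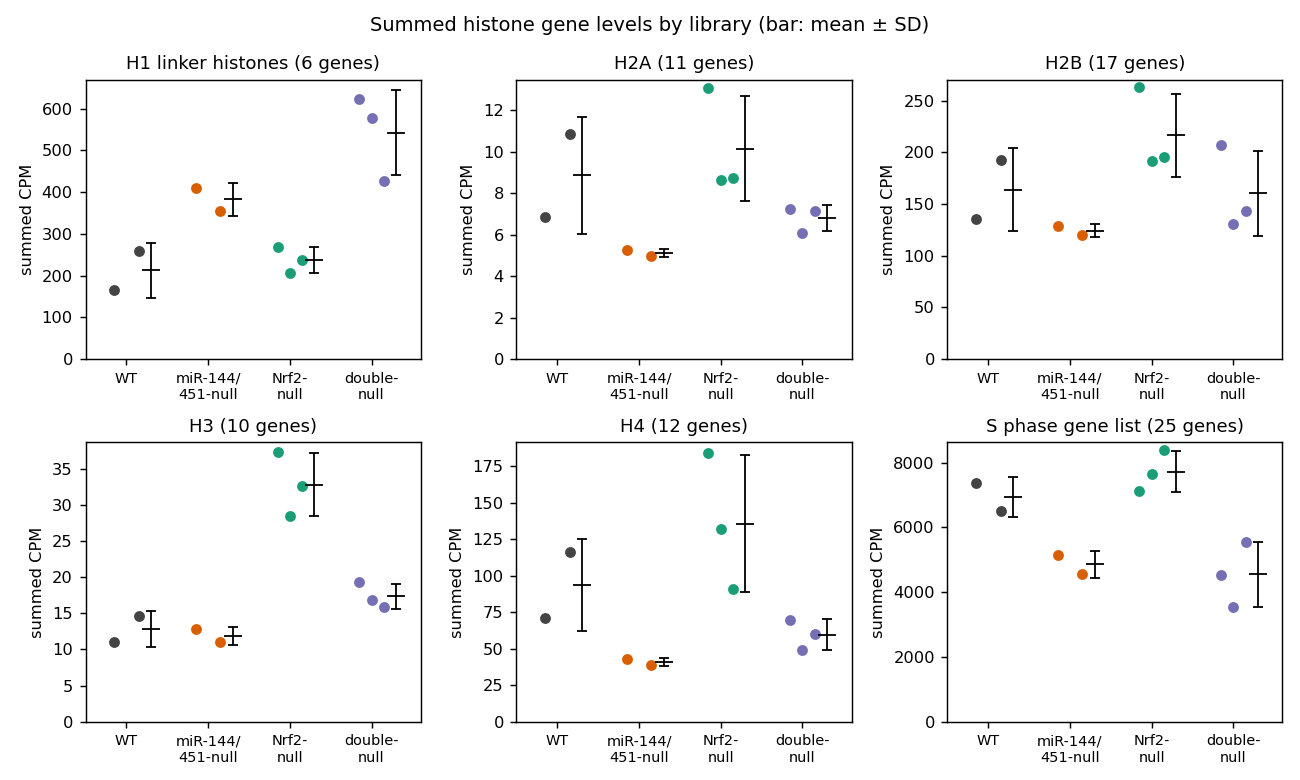
Summed CPM of the members of each histone class and of 25 S phase genes in each library (points), with the group mean ± SD beside them (bars); each vertical axis starts at 0. H1 is higher in each of the 5 libraries without the cluster than in each of the other 5, H3 is highest in the 3 Nrf2-null libraries, and H4 is lowest in miR-144/451-null.

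The H2A members, which pair with H2B in the nucleosome, were at low level. The highest per length was Hist3h2a, at a mean of 1.70 FPKM, followed by Hist1h2ae (0.845) and Hist1h2ac (0.693), and only 3 of 11 were tested. Hist3h2a was at 4.19 and 7.0 CPM in WT, 1.97 and 2.70 in miR-144/451-null, 5.58, 3.38 and 2.60 in Nrf2-null and 3.35, 3.04 and 2.88 in double-null libraries. Hist1h2ae stayed under 1.2 CPM in every library. None of the 3 passed in any comparison.

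The H2B members included 2 highly counted genes with no hairpin in the annotated transcript, Hist1h2bc (mean 57.3 FPKM) and Hist2h2be (16.2 FPKM). Per length, Hist1h2bg (16.3 FPKM) came after Hist1h2bc and Hist3h2ba. Hist1h2bc was at 48.4 and 66.1 CPM in WT, 49.5 and 42.4 in miR-144/451-null, 94.7, 63.6 and 77.7 in Nrf2-null and 94.4, 57.8 and 76.9 in double-null libraries. The last 2 groups overlapped almost entirely, with a log2 difference of -0.04 ± 0.20 (edgeR, adjusted p = 0.90). Hist3h2ba (48.1 FPKM) was at 30.2 and 46.6 CPM in WT, 15.3 and 19.0 in miR-144/451-null, 57.0, 39.1 and 27.2 in Nrf2-null and 28.1, 19.0 and 17.1 in double-null libraries. It fell in double-null against Nrf2-null by 0.94 ± 0.29 (edgeR, adjusted p = 0.0361), although double-null 1 lay above Nrf2-null 3. Without Nrf2-null 1 the fall was 0.63 (adjusted p = 0.13), without Nrf2-null 2 0.98 (adjusted p = 0.0663), without double-null 2 0.86 (adjusted p = 0.0917) and without double-null 3 0.78 (adjusted p = 0.114). The call was lost in 7 of 17 alternatives, which include a term for sex (-0.80, adjusted p = 0.117) and male libraries only (-0.78, adjusted p = 0.116).

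Hist1h2bj, whose annotated transcript ends 23 bases after the hairpin, was at 1.76 and 1.47 CPM in WT, 1.53 and 1.47 in miR-144/451-null, 5.38, 7.07 and 9.95 in Nrf2-null and 2.82, 2.74 and 3.31 in double-null libraries. The Nrf2-null libraries lay above all others and the double-null libraries lay between them and the rest. It shares 67.2% of its 31-base words, most with Hist1h2bq. It rose in Nrf2-null against WT by 2.2 ± 0.36 on the log2 scale (edgeR, adjusted p = 0.0397) and fell in double-null against Nrf2-null by 1.33 ± 0.29 (adjusted p = 0.00697). The first call was lost in 11 of 16 alternatives, among them a term for sex (2.45, adjusted p = 0.484), no scaling factors (2.07, 0.0684) and only the groups compared (2.2, 0.0596). It was also lost without WT 1 (2.36, adjusted p = 0.211), WT 3 (2.08, 0.438), Nrf2-null 2 (2.24, 0.121), Nrf2-null 3 (1.94, 0.0896), double-null 1 (2.2, 0.0501), double-null 2 (2.2, 0.0505) or double-null 3 (2.22, 0.0688). The other call passed in each of its 17 alternatives.

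**Figure D2:**
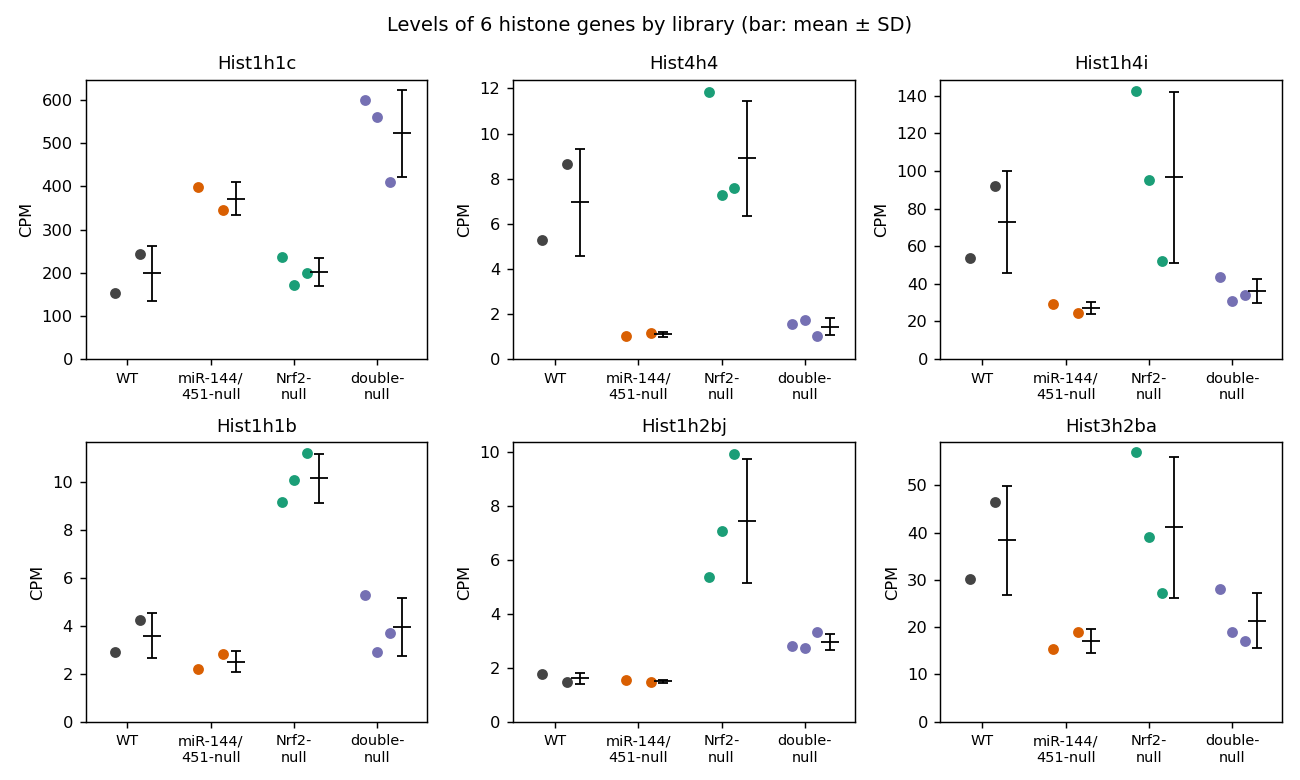
CPM of 6 histone genes in each library (points) with the group mean ± SD (bars); each vertical axis starts at 0. Hist1h1c is higher and Hist4h4 lower in the 5 libraries without the cluster, with no overlap with the other 5, and Hist1h1b and Hist1h2bj are highest in the 3 Nrf2-null libraries.

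The H3 members, which pair with H4 at the centre of the nucleosome, summed to 11.0 and 14.6 CPM in WT, 12.8 and 11.0 in miR-144/451-null, 37.3, 28.5 and 32.6 in Nrf2-null and 19.3, 16.9 and 15.9 in double-null libraries. The Nrf2-null libraries stood above the double-null ones, and these above the rest. The highest per length were Hist1h3i (7.52 FPKM), Hist1h3g (6.45) and Hist1h3c (5.69). Hist1h3c was at 2.00 and 3.34 CPM in WT, 1.75 and 1.53 in miR-144/451-null, 6.93, 3.76 and 8.57 in Nrf2-null and 3.27, 2.13 and 3.53 in double-null libraries. It fell in double-null against Nrf2-null by 1.11 ± 0.36 (edgeR, adjusted p = 0.0436). That call was lost without any single WT, Nrf2-null 1, Nrf2-null 3 or double-null library, the values running from -1.23 to -0.85 with adjusted p from 0.0512 to 0.16, and also with a term for sex (-1.25, adjusted p = 0.0692) and in male libraries only (-1.24, adjusted p = 0.0865). Hist1h3a, where each count rests on few reads, was at 0.850 and 0.814 CPM in WT, 2.12 and 1.58 in miR-144/451-null, 2.69, 2.71 and 3.90 in Nrf2-null and 0.520, 1.29 and 1.22 in double-null libraries. It fell in double-null against Nrf2-null by 1.60 ± 0.40 (edgeR, adjusted p = 0.0127), while the 2 miR-144/451-null libraries lay above WT. It shares 58.9% of its 31-base words with other genes.

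The H4 members were led by Hist1h4i (ENSMUSG00000060639; mean 81.1 FPKM, 40.1 to 193), followed by Hist1h4k (19.0) and Hist1h4n (8.16). Hist1h4i was at 53.8 and 92.2 CPM in WT, 29.2 and 24.7 in miR-144/451-null, 143, 95.1 and 52.0 in Nrf2-null and 43.6, 30.9 and 34.2 in double-null libraries. The 5 libraries without the cluster lay below the 5 with it. Hist1h4i fell in double-null against Nrf2-null by 1.41 ± 0.34 on the log2 scale (edgeR, adjusted p = 0.0142), and its miR-144/451-null against WT difference was -1.44 ± 0.42 (adjusted p = 0.094). Hist1h4k was at 3.82 and 4.64 CPM in WT, 4.89 and 4.69 in miR-144/451-null, 13.1, 8.42 and 3.14 in Nrf2-null and 6.54, 4.33 and 6.05 in double-null libraries, and passed no test.

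Hist4h4 (ENSMUSG00000096010), the lone gene of its gene cluster, had the most negative log2 difference of the 44 tested members in both comparisons of microRNA cluster loss. It was at 5.28 and 8.63 CPM in WT and 1.02 and 1.17 in miR-144/451-null. It was at 11.8, 7.29 and 7.57 CPM in Nrf2-null and 1.56, 1.75 and 1.01 in double-null libraries, the counts behind these being 87 and 106, 14 and 20, 176, 97 and 99, and 21, 23 and 14. Every library with the cluster lay above every library without it. By edgeR's quasi-likelihood test it fell by 2.65 ± 0.42 in miR-144/451-null against WT (adjusted p = 0.0079), by 2.63 ± 0.34 (adjusted p = 3.91e-04) between double-null and Nrf2-null, and by 2.26 ± 0.36 in double-null against WT (adjusted p = 0.00278). The interaction, which asks whether loss of the cluster acted differently without Nrf2, was 0.02 ± 0.48 (adjusted p = 1.00). The first call was lost without WT 3 (-2.25, adjusted p = 0.0789) or miR-144/451-null 1 (-2.55, adjusted p = 0.0693), and with a term for sex (-3.35, adjusted p = 0.162). The call between double-null and Nrf2-null passed in all 17 alternatives.

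Hist1h4n, a further H4 gene whose annotated transcript ends near the hairpin, was at 1.34 and 1.63 CPM in WT, 0.657 and 0.587 in miR-144/451-null, 4.17, 4.51 and 6.20 in Nrf2-null and 9.0, 4.48 and 3.96 in double-null libraries. All 6 libraries lacking Nrf2 lay above the other 4. It rose in double-null against miR-144/451-null by 3.21 ± 0.47 (edgeR, adjusted p = 0.0455) and against WT by 1.97 ± 0.43 (adjusted p = 0.0115), with a Nrf2-null against WT difference of 1.74 ± 0.43 (adjusted p = 0.24). It shares 87.5% of its 31-base words, most with Hist1h4m. The call against miR-144/451-null was lost in 11 of 16 alternatives, among them without any single library but Nrf2-null 3 and double-null 2 (adjusted p 0.0544 to 0.142), without scaling factors (2.98, adjusted p = 0.059) and with only the groups compared (3.21, adjusted p = 0.25). The call against WT was lost without WT 1 (1.85, adjusted p = 0.0978) or WT 3 (2.12, adjusted p = 0.0718) and with a term for sex (1.42, adjusted p = 0.14).

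Loss of the cluster without Nrf2 (double-null against Nrf2-null) gave 11 calls among the 44 tested members, 1 higher and 10 lower, where 27.3% of all tested genes were called (14.4% higher and 12.9% lower). The share of members called (25%) was near that background, while the lower direction held 10 of the 11. The higher member was Hist1h1c. The lower ones were Hist4h4, Hist1h1b, Hist1h2bj, Hist1h3a, Hist1h4i, Hist1h2bm, Hist1h4f, Hist1h2bp, Hist3h2ba and Hist1h3c, of which Hist1h2bm, Hist1h4f and Hist1h2bp lie outside the naming rule and were named after their values were seen. The median log2 difference was -0.82 over the tested members and 0.02 over all tested genes, and 41 of 44 members had a negative value. Between these groups 16 members were lower without overlap (21.8% of all genes) and 1 was higher (23.4%). By class, 15 of 15 H2B, 9 of 9 H3, 10 of 12 H4, 3 of 3 H2A and 4 of 5 H1 members had a negative value, with medians of -0.94, -0.85, -0.75, -0.32 and -0.67. Leaving out Nrf2-null 1 left 7 calls and leaving out double-null 2 left 6, and male libraries alone gave 7. Beside them B cell markers fell in 7 of 8 genes. Macrophage markers were called lower in 1 of 8, with a median of -1.48 and sums of 284 to 1006 CPM in Nrf2-null and 72.2 to 345 in double-null libraries. NK cell markers, of which Klrb1c had no count in double-null 1, were called lower in 1 of 5, with a median of -1.58 and sums of 16.6 to 26.7 and 5.12 to 20.5 CPM. Megakaryocyte marker sums went the other way, at 36.6 to 58.6 CPM in Nrf2-null and 124 to 168 in double-null libraries. Of these 6 genes 1 was called higher and 1 lower. Neutrophil markers summed to 164 to 1181 and 1095 to 1227 CPM, with 0 of 8 called. Erythroid markers were called lower in 3 of 10, with a median of -0.14. T cell markers had 0 of 6 called, with a median of -0.83. The part of these cells in the histone differences was not tested.

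Hist1h2bm, an H2B gene with the octamer shown above, was at 0.668 and 1.71 CPM in WT, 0.584 and 0.821 in miR-144/451-null, 2.49, 2.03 and 2.91 in Nrf2-null and 1.04, 0.836 and 0.721 in double-null libraries. It fell in double-null against Nrf2-null by 1.51 ± 0.42 (edgeR, adjusted p = 0.0227), a call lost without Nrf2-null 1, Nrf2-null 3, double-null 2 or double-null 3 (adjusted p 0.0533 to 0.0782), with a term for sex (adjusted p = 0.0764) and in male libraries only (adjusted p = 0.0602). Hist1h2bp fell by 1.45 ± 0.44 (edgeR, adjusted p = 0.0326) and without Nrf2-null 1, where it was at 6.19 CPM against 2.48 and 2.91 in the other Nrf2-null libraries, by 0.93 (adjusted p = 0.162). That call was lost in 7 of 17 alternatives, also without each double-null library (adjusted p 0.0525 to 0.113), with a term for sex (adjusted p = 0.109) and in male libraries only (adjusted p = 0.119). Hist1h4f, at 1.61, 1.73 and 2.91 CPM in Nrf2-null and 0.595, 0.608 and 0.865 in double-null libraries, fell by 1.58 ± 0.45 (edgeR, adjusted p = 0.0242), and the call was lost without Nrf2-null 3, double-null 1 or double-null 2 (adjusted p 0.0613 to 0.0937).

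Loss of Nrf2 alone (Nrf2-null against WT) gave 1 call among the 44 members, Hist1h2bj, where 0.191% of all tested genes were called. Values of 41 of 44 members were positive, with a median of 1.08 against -0.02 over all genes. At an unadjusted p under 0.05 there were 22 members, against 12.1% of all genes, and 27 members were higher without overlap between the groups (15.7% of all genes) and 0 lower (20.1%). The median was 1.61 for the 9 H3 members, 1.30 for 5 H1, 0.78 for 15 H2B, 0.74 for 12 H4 and 0.03 for 3 H2A. Among the 23 tested members that share under 50% of their 31-base words the median was 0.46. This comparison shares the Nrf2-null libraries with the one above, so the opposite signs are not independent, and it coincides with male against female. Macrophage markers (8, none at 0) summed to 164 and 160 CPM in WT and 353, 284 and 1006 in Nrf2-null libraries, and their part was not tested.

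**Figure D3:**
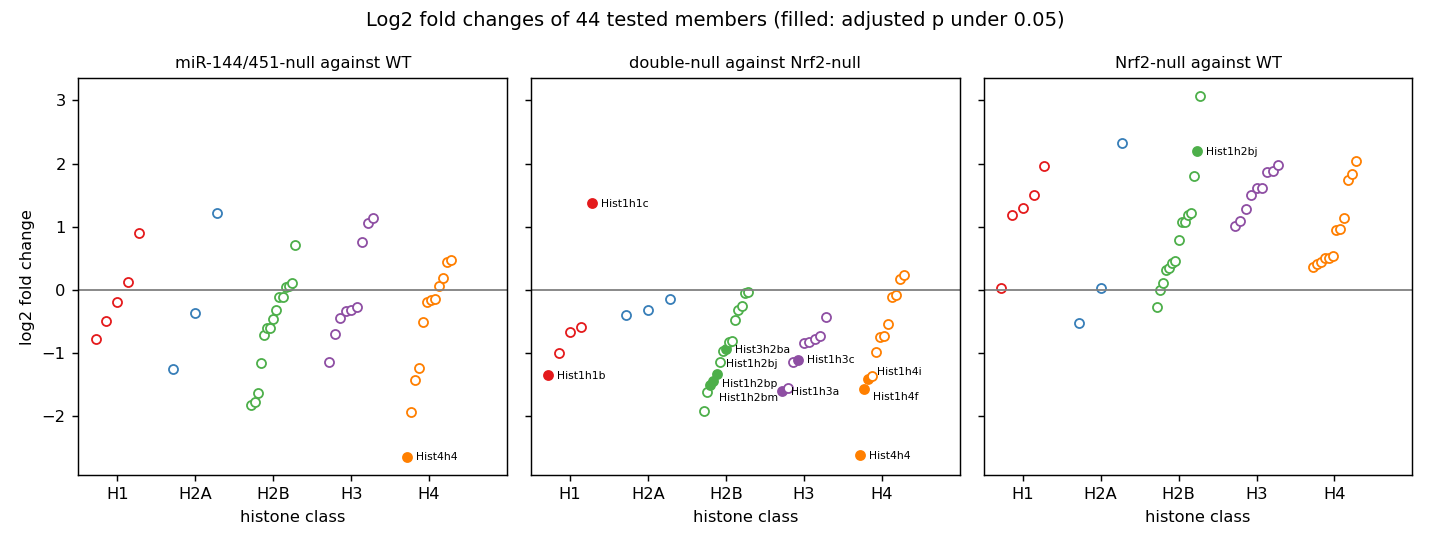
Log2 fold change of each of the 44 tested members, by class, in 3 comparisons; filled points passed at an adjusted p under 0.05 and are named. In double-null against Nrf2-null 41 of 44 lie below 0 with Hist1h1c the highest, and in Nrf2-null against WT 41 of 44 lie above 0 with 1 call; these 2 comparisons share the Nrf2-null libraries.

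Loss of the cluster with Nrf2 present (miR-144/451-null against WT) gave 1 call among the 44 members, Hist4h4, where 4.63% of all genes were called (2.23% lower and 2.4% higher). The median was -0.32 against 0.02 over all genes, 30 members had a negative value, and 10 had an unadjusted p under 0.05 (18.4% of all genes). No overlap was seen for 15 lower members (22.8% of all genes) and 7 higher (24.2%). Without WT 1 the members' median was -0.61 and without WT 3 it was -0.07. The interaction called 0 of the 44 members by edgeR (0.0638% of all genes were called, 0.0283% higher and 0.0354% lower) and 0 by DESeq2. By edgeR 5 of the 44 had an unadjusted p under 0.05, against 4.46% of all genes. At the adjusted threshold, a difference between miR-144/451-null against WT and the comparison without Nrf2 was not shown for any member.

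Double-null against miR-144/451-null gave 1 call among the members, Hist1h4n, which was higher (0.0638% of all genes were called, 0.0496% higher), with a median of 0.46 against -0.02 and 38 of 44 positive values. Of the members, 19 were higher without overlap (12.1% of all genes) and 1 lower (12.4%). Double-null against WT gave 3 calls, Hist1h1c and Hist1h4n higher and Hist4h4 lower (17.2% of all genes were called, 8.26% higher and 8.95% lower), with a median of 0.27 against -0.02. Here 11 members were higher without overlap (24.9%) and 4 lower (25.3%).

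**Figure D4:**
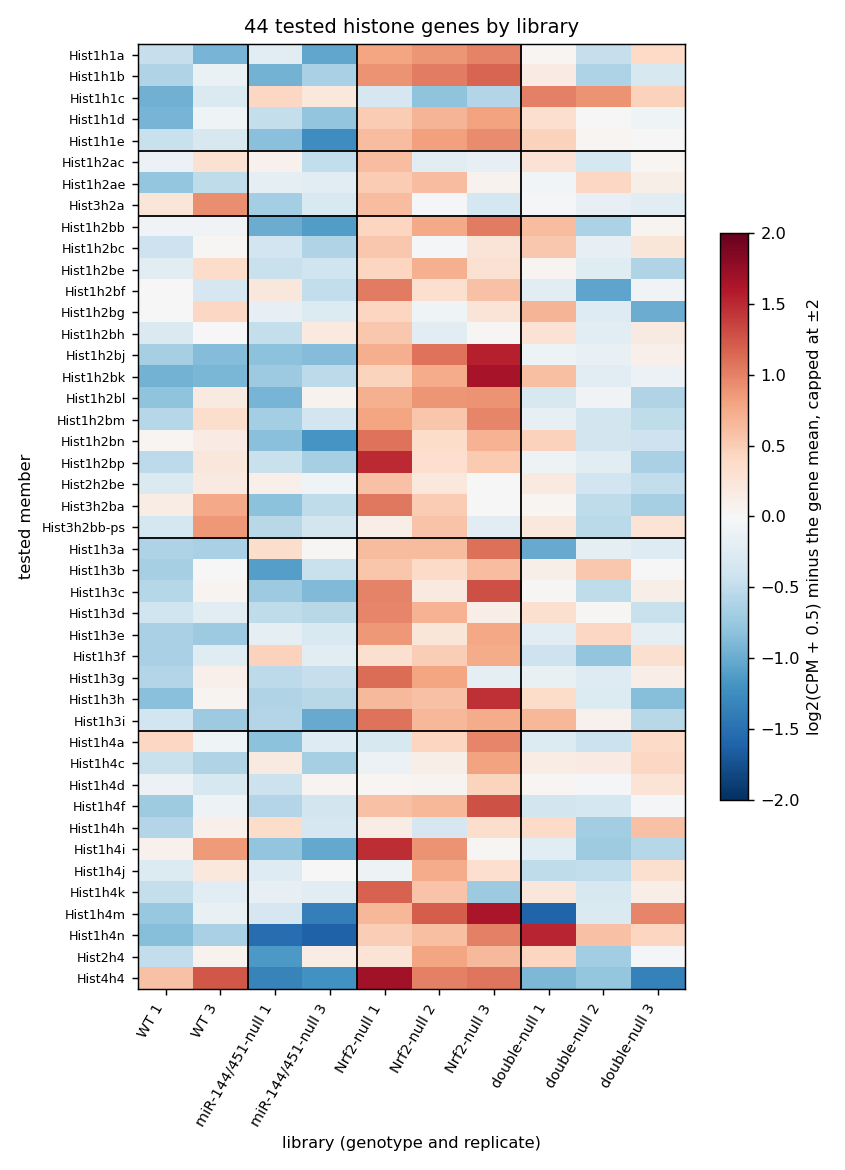
Log2(CPM + 0.5) of the 44 tested members minus each gene's mean over the 10 libraries (colour, capped at ±2), with libraries in columns and members in rows grouped by class. Many rows are highest in the 3 Nrf2-null columns, while Hist1h1c is highest and Hist4h4 lowest in the columns without the cluster.

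Members were also described by where the annotated transcript ends, with a limit of 100 bases after the hairpin that was chosen after the values were seen. In 21 members it ran further (151 to 4884 bases). These held 74.6% of the member counts at a median level of 1.47 FPKM (0.098 to 212). In 17 members it ended 3 to 74 bases after the hairpin. These held 4.04% of the counts at a median of 2.62 FPKM (0.215 to 8.16), so no member that ends near its hairpin reached the level of the few abundant ones. The 18 members with no hairpin found held 21.4% of the counts at a median of 2.22 FPKM (0.114 to 57.3). FPKM divides by a gene length that includes the annotated bases after the hairpin, so these medians are not independent of how the sets were formed.

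The sets were then summed by library. The 17 members that end near the hairpin summed to 12.4 and 17.7 CPM in WT, 13.1 and 10.6 in miR-144/451-null, 42.7, 37.3 and 57.5 in Nrf2-null and 26.4, 18.2 and 24.6 in double-null libraries, so that every library lacking Nrf2 lay above every library with it. The 21 that run further summed to 280 and 441, 478 and 424, 516, 375 and 351, and 731, 654 and 501 CPM, with Hist1h1c the largest part. In double-null against Nrf2-null, 6 of 13 tested members of the first set were called lower (12.9% of all tested genes), with a median of -1.33. Of 19 tested members of the other set 1 was called higher (14.4% of all) and 3 lower, a share near that of all genes, with a median of -0.67. Nrf2-null against WT medians were 1.51 and 0.50 in the same order. The difference between the sets was not tested, and the members that end near their hairpin include many close copies.

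**Figure D5:**
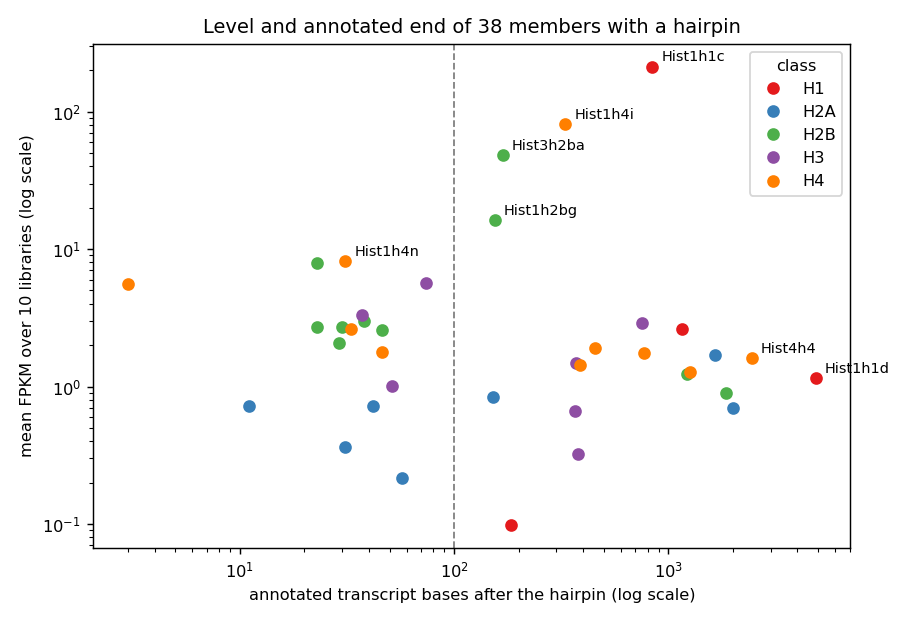
Mean FPKM over the 10 libraries against the annotated bases after the hairpin for the 38 members with one, both axes logarithmic, coloured by class; the dashed line marks 100 bases. Members left of the line reach at most 8.16 FPKM, while Hist1h1c (212), Hist1h4i (81.1) and Hist3h2ba (48.1) lie to the right of it. The length in FPKM includes the bases on the horizontal axis, so the axes are not independent.

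Genes that act on the members were counted from lists, beside the same background for each comparison. Of 18 tested genes for the transcription and 3′ end processing of histone mRNA, 1 rose and 2 fell in double-null against Nrf2-null, with a median of -0.05. Neither count was above the share of all tested genes (14.4% higher and 12.9% lower). Slbp, which binds the hairpin, was at 284 and 251 CPM in WT, 157 and 116 in miR-144/451-null, 318, 385 and 440 in Nrf2-null and 142, 108 and 209 in double-null libraries. The 5 libraries without the cluster lay below the other 5, and Slbp fell in double-null against Nrf2-null by 1.31 ± 0.23 (edgeR, adjusted p = 0.00225). Eri1, the exonuclease that trims the hairpin end, fell by 0.79 ± 0.19 (adjusted p = 0.0096), and Cpsf3, the endonuclease that makes the cut, rose by 0.60 ± 0.17 (adjusted p = 0.0246). No gene of the list was called in miR-144/451-null against WT, where its median was 0.00.

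Of 20 tested histone chaperones and assembly factors, 2 rose (14.4% of all tested genes) and 7 fell (12.9%) in double-null against Nrf2-null. Their median was -0.33. Asf1b, an H3-H4 chaperone, was at 186 and 252 CPM in WT, 86.0 and 88.8 in miR-144/451-null, 249, 261 and 269 in Nrf2-null and 84.1, 57.1 and 88.2 in double-null libraries. Asf1b fell by 1.76 ± 0.18 in double-null against Nrf2-null (edgeR, adjusted p = 8.98e-05) and by 1.33 ± 0.21 in miR-144/451-null against WT (adjusted p = 0.0079). It was the only gene of the list called in the latter comparison, where 2.23% of all tested genes fell. Anp32e, a chaperone of H2A.Z, fell by 0.99 ± 0.15 and Supt16, a subunit of the FACT complex, by 0.76 ± 0.13, whereas Supt6 rose by 0.55 ± 0.11 and Cabin1 by 0.48 ± 0.15.

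Of 11 genes of variant histones, which are made outside S phase too, 9 were tested. In double-null against Nrf2-null 2 rose (14.4% of all tested genes) and 3 fell (12.9%). H2afx, which is phosphorylated at DNA breaks, fell by 1.80 ± 0.26 (edgeR, adjusted p = 8.75e-04) and also in miR-144/451-null against WT, by 1.37 ± 0.31 (adjusted p = 0.0364). Cenpa, the centromeric H3, fell by 0.90 ± 0.15 and H2afj by 0.62 ± 0.21. H2afv rose by 0.57 ± 0.14, and in miR-144/451-null against WT by 0.93 ± 0.18 (edgeR, adjusted p = 0.0161), and H2afy rose by 0.59 ± 0.19. The 11 variant genes summed to 2164 to 3079 CPM over the libraries, against 390 to 927 for the 56 members. These sums are not scaled to gene length, and counts of close copies among the members could have been lost. They therefore do not show which set was more abundant.

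Of 25 S phase genes, none rose (14.4% of all tested genes) and 15 fell (12.9%) in double-null against Nrf2-null, with a median of -0.63. In miR-144/451-null against WT none rose (2.4% of all tested genes) and 3 fell (2.23%), with a median of -0.38. Cyclin A2 (Ccna2) fell by 1.39 ± 0.14 (edgeR, adjusted p = 8.54e-05) in the first and 0.96 ± 0.17 (adjusted p = 0.0103) in the other. Ccne1 fell by 1.29 ± 0.21 and E2f1 by 1.24 ± 0.19 in double-null against Nrf2-null, and E2f1 by 1.11 ± 0.24 and Rrm2, a ribonucleotide reductase subunit, by 1.23 ± 0.27 in miR-144/451-null against WT. The list summed to 7382 and 6503 CPM in WT, 5157 and 4575 in miR-144/451-null, 7140 to 8384 in Nrf2-null and 3552 to 5563 in double-null libraries. WT overlapped with Nrf2-null. The part of S phase content in the histone differences was not tested. In Nrf2-null against WT and in double-null against miR-144/451-null edgeR called no gene of these 4 lists, where 0.191% and 0.0638% of all tested genes were called.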

How the data were processed

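The authors deposited raw counts per Ensembl gene for 10 libraries and, per library, FPKM values, which the deposited values show to be counts over a fixed gene length and the library's sum (196970 of 196970 compared values within 0.1%). In the submitters' processing notes stand HISAT2 2.1.0, TopHat2, Bowtie2 2.2.3, CASAVA and mm9, with no roles. How reads were counted, and on which strand, is not given in the sources used here. Per the labels, a Miltenyi Biotec kit isolated the cells and a VAHTS Universal V6 kit made the libraries.

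Symbols came from GENCODE M21 through the identifiers (99.6% matched), with close copies measured as shared 31-base words. Since that annotation is on a later build than mm9, no coordinates are printed. One edgeR 4.0.16 model (R 4.3.3) was fitted over all 10 libraries (TMM factors, filterByExpr, robust quasi-likelihood test, two-sided, 1 coefficient per genotype, 14110 genes, 6 residual degrees of freedom). SE is the log2 fold change divided by the square root of F. A call is a Benjamini-Hochberg adjusted p under 0.05. Levels per length are the deposited FPKM. Totals of 13087827 to 15131036 counts per library leave low members with few counts (median 231.5 over all libraries). The fit was tested on simulated data, with 100 genes changed 2-fold and 100 changed 4-fold. In double-null against Nrf2-null it recovered 38 and 72 of them, and 10 of 120 calls were false. In miR-144/451-null against WT it recovered 19 and 58, and 8 of 85 calls were false. A member without a call is therefore not shown to be unchanged.

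The members, lists and tests were chosen with earlier results of these data known. Named members are the 3 highest by FPKM in each class and, per comparison and direction, up to 4 called members with the smallest p. Outside this rule Hist1h1d, Hist1h1e, Hist2h2be, Hist1h2bm, Hist1h4f and Hist1h2bp were also described. From each list up to 3 called genes were named. Alternatives were DESeq2 1.42.0, no scaling factors, no filter, only the groups compared, a replicate block, a term for sex, only members sharing under 50% of their words, and each library left out; male libraries only was added after seeing the data.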

Additional observations from a re-analysis of the deposited data

Results flagged for a closer look

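Hist1h3a moved in opposite directions in the 2 backgrounds. Both miR-144/451-null libraries (2.12 and 1.58 CPM) lay above both WT libraries (0.850 and 0.814), and all 3 double-null libraries (0.520 to 1.29) lay below all 3 Nrf2-null libraries (2.69 to 3.90). Read by Nrf2 instead, the Nrf2-null libraries lay above WT and the double-null libraries below miR-144/451-null. The difference of the differences was -2.74 ± 0.64 on the log2 scale, which did not pass in edgeR's test (unadjusted p = 0.00122, adjusted p = 0.56). The gene shares 58.9% of its 31-base words with other genes.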

How the results depend on the processing

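Numbers of members called depended on the settings as follows. In miR-144/451-null against WT the 1 call became 4 with DESeq2, 2 without scaling factors, 4 without the filter and 0 with a term for sex, and leaving out 1 library gave 0 (without WT 3 or miR-144/451-null 1) to 2. In double-null against Nrf2-null the 11 became 7 in male libraries only (chosen after seeing the data), with 6 to 13 on leaving out a library. Among members sharing under 50%, 5 of 23 tested were called, against 11 of all 44. In Nrf2-null against WT the 1 became 7 with DESeq2 and 11 without the filter, and 0 without scaling factors, with only the groups compared, with a term for sex and with the replicate block, with 0 to 1 on leaving out a library. In double-null against miR-144/451-null the 1 became 2 with DESeq2 and 3 without the filter, and 0 without scaling factors, with only the groups compared and with the replicate block, with 0 to 1 on leaving out a library. Keeping only members sharing under 50% counted calls of the same fit. It left 0 calls in Nrf2-null against WT and in double-null against miR-144/451-null. That was fixed in advance, since their only called members, Hist1h2bj (67.2% shared) and Hist1h4n (87.5%), are dropped by definition. In double-null against WT the 3 became 6 without the filter and 1 with a term for sex, with 2 to 5 on leaving out a library, and the interaction's 0 became 1 without the filter. The replicate block left 10 calls in double-null against Nrf2-null and 3 in double-null against WT. Replicate numbers did not pair libraries (r of deviations -0.111 to 0.287 over 13 same-numbered pairs, 1 of them over 0.1). On raw library totals the miR-144/451-null sums were 424 (H1), 5.70 (H2A), 138 (H2B), 13.2 (H3) and 45.5 (H4) CPM. Over 17 called member results and 283 alternatives, 222 kept their call, 61 lost it and 0 reversed; the causes were not tested. Without scaling factors the median of all genes moved to 0.147 in miR-144/451-null against WT, -0.123 in Nrf2-null against WT, -0.112 in double-null against WT and -0.238 in double-null against miR-144/451-null, with member medians of -0.19, 1.00, 0.19 and 0.25.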
